A study of Mus musculus with 27 samples.

Results

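The sites described here are stretches of the mouse genome that carried H3K4me1 in hematopoietic stem cells before and after birth, with no H3K4me1 peak in hematopoietic progenitors at either age. They are called HSC-only sites below. A peak of the adult stem cell list was taken when it shared at least 1 bp with a peak of the fetal stem cell list and none with a peak of the fetal or the adult progenitor list. This rule found 5453 of 143571 adult stem cell sites, which is 3.80%. The members were chosen by their H3K4me1 peaks in these 4 lists, so their H3K4me1 values are given as a description and support nothing.

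The study sorted stem cells (HSC) and progenitors (HPC) of the blood system from mice of the B6 background. Fetal cells were from E16.5 embryos and adult cells from animals of 8 weeks, and the labels name no further allele or treatment. The assay was ChIPmentation, in which antibody-bound chromatin is cut and tagged by the Tn5 transposase. H3K4me1 was measured in 4 adult HSC, 3 fetal HSC, 3 fetal HPC and 3 adult HPC libraries, and H3K27ac in 3 fetal and 3 adult HPC libraries. The labels of 2 more fetal and 3 more adult HPC libraries disagree on the mark: H3K27me3 is in the titles, but the mark field says H3K27ac. They are named the second K27 set below. The 27 libraries also held 3 inputs. No sort markers, sex or number of animals behind a library is given in the sources used here, and H3K27ac of HSC was not analysed here. The libraries of a group entered 1 pooled peak list, so no value has a spread between replicates and no test across samples was possible. The read depth is unknown. Intervals are 95% Wilson intervals for shares and 95% Newcombe intervals for differences between shares, and they cover counting error over sites only.

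H3K4me1 is placed at enhancers and at the flanks of promoters, and an enhancer can carry it before the gene is switched on. H3K27ac is added at enhancers and promoters in use, whereas H3K27me3 is laid down by Polycomb over silent genes, above all over regulators of other lineages. Stem cells keep themselves through transcription factors such as Mecom, Prdm16 and Meis1, and progenitors replace much of that programme with genes of the lineage they enter.

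Sequence was at hand for promoters, from 250 bases before to 50 bases after each start, from RefSeq on GRCm38.p6. HSC-only sites touched 150 such promoters of 132 genes, and 4 are shown. They cover both K27 patterns found below and neither. Each is on its gene's own strand, 5′ to 3′, with every CG pair in capitals. These promoters were chosen after their values were seen. Sox6 (a SOX-family transcription factor) is on the minus strand at chr7:115824661-115824960, Magi1 (a scaffold protein of cell junctions) on the minus strand at chr6:93912914-93913213, Bsx (a homeobox factor of the brain) on the plus strand at chr9:40873877-40874176, and Abcg2 (the efflux pump behind the dye-excluding side population of stem cells) on the plus strand at chr6:58640296-58640595.
Sox6: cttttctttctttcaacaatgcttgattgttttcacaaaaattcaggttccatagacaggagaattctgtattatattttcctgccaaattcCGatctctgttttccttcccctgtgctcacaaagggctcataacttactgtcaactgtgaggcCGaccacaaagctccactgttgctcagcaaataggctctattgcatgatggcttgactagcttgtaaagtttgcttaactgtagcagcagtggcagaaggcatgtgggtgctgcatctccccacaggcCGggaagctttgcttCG
Magi1: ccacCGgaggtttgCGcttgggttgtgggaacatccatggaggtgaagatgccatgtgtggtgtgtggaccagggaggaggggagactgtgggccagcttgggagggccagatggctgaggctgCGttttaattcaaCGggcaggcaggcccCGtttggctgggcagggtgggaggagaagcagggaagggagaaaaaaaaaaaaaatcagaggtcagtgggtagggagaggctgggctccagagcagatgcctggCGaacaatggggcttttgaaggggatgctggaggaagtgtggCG
Bsx: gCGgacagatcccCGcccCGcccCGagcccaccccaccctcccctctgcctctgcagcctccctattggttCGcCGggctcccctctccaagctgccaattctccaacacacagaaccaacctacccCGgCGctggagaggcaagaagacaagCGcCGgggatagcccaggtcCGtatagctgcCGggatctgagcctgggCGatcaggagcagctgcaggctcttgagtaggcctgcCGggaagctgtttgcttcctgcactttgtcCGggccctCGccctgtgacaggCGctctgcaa
Abcg2: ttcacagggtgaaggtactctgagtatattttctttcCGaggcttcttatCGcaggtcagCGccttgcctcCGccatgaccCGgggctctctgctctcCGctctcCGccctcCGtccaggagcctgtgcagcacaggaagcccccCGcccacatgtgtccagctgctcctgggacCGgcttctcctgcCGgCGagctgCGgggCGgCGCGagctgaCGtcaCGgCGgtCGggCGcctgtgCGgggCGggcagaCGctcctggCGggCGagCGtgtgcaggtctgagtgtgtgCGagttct
The Sox6 window lay wholly (300 bases) in an HSC-only site of 404 bp with an adult fold of 2.31 and a fetal fold of 3.95, and neither K27 set had a peak there. The Magi1 window had 299 of its bases in a site of 1012 bp, 47249 bp from any HPC H3K4me1 peak, with an adult fold of 3.67, a fetal fold of 2.40 and no K27 peak of either kind. The Bsx window lay wholly in a site of 639 bp with an adult fold of 3.13 and a fetal fold of 2.55, which overlapped the second K27 set at both ages. The Abcg2 window had 78 bases in a site of 545 bp with an adult fold of 2.81 and a fetal fold of 3.08, and that site overlapped adult but not fetal H3K27ac of HPC. CG pairs numbered 4 in Sox6, 7 in Magi1, 17 in Bsx and 28 in Abcg2. Over the 150 touched promoters the median was 7, and over all 32817 promoters of the table it was also 7. An observed-to-expected CG ratio above 0.6, a usual mark of CpG islands, was found in 37 of the 150 (24.7%; 18.5 to 32.1%), against 36.1% of the 6218 promoters touched by sites called in all 4 H3K4me1 lists and 35.8% of all promoters. Both of the latter shares lie above the interval of the touched promoters. The 150 windows belong to 132 genes and some nearly coincide, so they are not independent and the interval may be too narrow. Some were barely touched, such as a Klf1 window with 2 bases in a site.

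Short motifs of blood transcription factors were searched on both strands of the same promoter windows. GATAAG, which zinc finger factors such as Gata2 bind, was in 8.00% of the 150 touched promoters and in 7.45% of all. GGAAGT, an ETS-type motif, was in 24.0% against 23.8%. CAGCTG, an E-box, was in 19.3% against 16.3%, and TGTGGT, the RUNX core, in 14.0% against 16.8%. GTAAACA, a forkhead motif, was in 5.33% (2.73 to 10.2%) against 3.65%. CATCTG, another E-box, was in 17.3% against 17.2%, and TGACAG, a MEIS-type motif, in 20.7% against 19.2%. TGANTCA, the AP-1 motif, was in 6.67% against 7.81%, and TGATAA, which can share bases with a GATA motif, in 8.67% against 9.06%. For each of the 9 motifs the share over all promoters lay inside the counting interval of the touched ones. Most HSC-only sites lie away from promoters, and their own sequence was not analysed here.

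HSC-only sites were narrow and of modest height. Their median width was 349 bp, from 143 to 3850 bp, against 1041 bp for the 84969 adult HSC sites that overlapped a peak in each of the other 3 H3K4me1 lists (4-list sites). The fold of ChIP signal over background at a peak, which the authors' caller wrote, had a median of 2.49 and ran from 1.5 to 11.1, and the whole adult HSC list had a median of 2.99. The strongest fetal HSC peak under each site had a median fold of 2.72, within a list whose median was 2.89. A fold above the list's median was found at 936 sites in the adult list, at 2062 in the fetal list and at 414 in both. Across the 5453 sites the adult and fetal folds were nearly unrelated, with Pearson's r of 0.06 and Spearman's coefficient of 0.05, given as a description because sites of 1 list share its libraries. The folds of the class had a narrow range, with quartiles of 2.26 and 2.82 in adult and 2.40 and 3.18 in fetal HSC. A narrow range can lower a correlation, and no coefficient for other sites is given here. A single fetal peak lay under 5006 of the sites and 2 or more under 447. The median site shared 64.1% of its width with fetal peaks. Together the sites covered 2.48 Mb.

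The class was thin among strong peaks. When the adult HSC sites were put in 10 bands of equal size by their −log10 p, HSC-only sites made up 0.0697% of the strongest band, or 10 sites, and 7.36% of the weakest, or 1057 sites. The share rose at every step between them, and only 20 HSC-only sites stood among the 20000 strongest of the list. Sites under 200 bp made up 14.8% of the class and 2.99% of 4-list sites. A weak site is also more easily missed in another list, and the part that calling depth had in the HSC-only class was not tested.

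**Figure D1:**
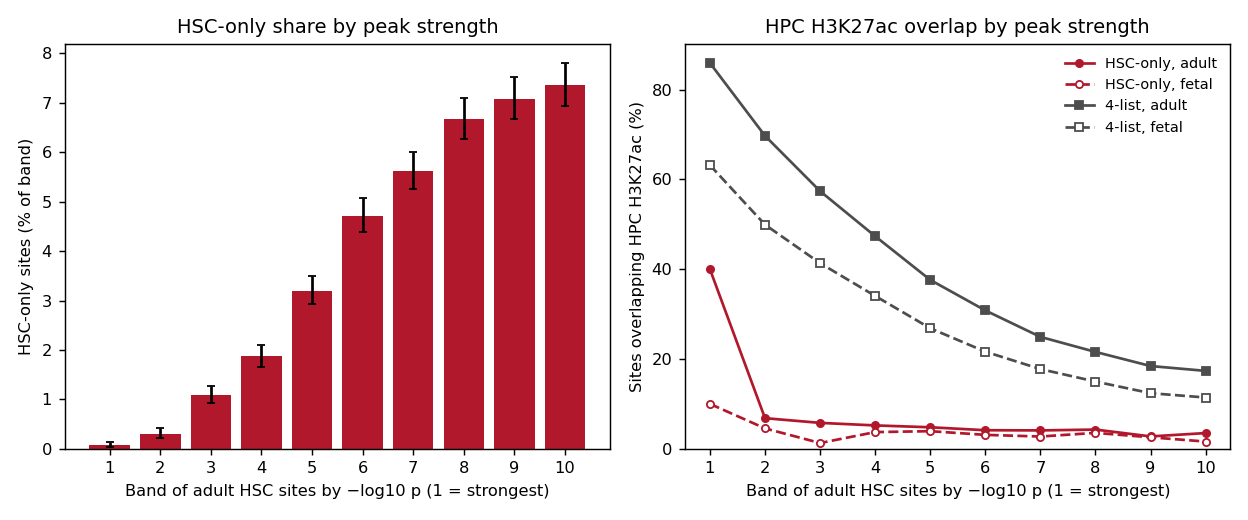
Left, HSC-only sites as a percentage of each band of adult HSC H3K4me1 sites, from the strongest (band 1) to the weakest (band 10) by −log10 p, with 95% Wilson intervals. Right, the percentage of HSC-only (red) and 4-list (grey) sites of each band that overlapped adult (filled) or fetal (open) H3K27ac peaks of HPC. The share of HSC-only sites climbed from 0.0697% to 7.36%, and their H3K27ac overlap lay below that of 4-list sites in each of the 10 bands.

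The strongest HSC-only sites were of contrasting shapes. The highest of all, at Acacb, the mitochondrial acetyl-CoA carboxylase, was 265 bp wide (chr5:114173000-114173264, inside the gene body). Its fold was 11.1 in adult HSC and 8.22 in fetal HSC, it ranked 14 in the adult list, and it overlapped H3K27ac of HPC at both ages, with folds of 7.80 in adult and 4.60 in fetal cells. Sites of 246 bp in Fam227b and 231 bp in Plxdc2 and a site of 372 bp at chr17:4626211-4626582, with no coding gene within 100 kb, had adult folds of 6.33, 5.20 and 5.81 and adult but not fetal H3K27ac. The remaining 6 of the 10 strongest were 1085 to 2833 bp wide and had no K27 peak of either kind. Among them were sites in Prorp, the protein-only RNase P of mitochondria (chr12:55327813-55330611, 2799 bp, adult fold 5.86, fetal fold 3.81), in Pcsk7, a proprotein convertase (2127 bp, 5.77 and 3.45), in Sorbs2, an adaptor of the actin cytoskeleton (1085 bp, 5.63 and 4.24), and in Ece1, the endothelin-converting enzyme (2287 bp, 5.31 and 3.37). The other two lay 90548 bp from Il20rb, a chain of interleukin receptors, and 31179 bp from Herpud2. Among these 10, the 4 narrow sites of 372 bp or less had H3K27ac and the 6 wide ones had none. That pattern did not hold for the whole class. There the 294 sites with H3K27ac at either age had a median width of 377 bp, and the 5159 others 347 bp.

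Each site was assigned to the nearest protein-coding gene body within 100 kb, which placed 4889 HSC-only sites (89.7%, against 93.7% of all adult HSC sites) at 2998 genes. Over all adult HSC sites with such a gene the HSC-only share was 3.63%. Plcl1, an inactive relative of phospholipase C, had 18 HSC-only sites of 60, of which 6 lay in a run of 16.6 kb. Prdm16 and Mecom, related PR-domain zinc finger factors that maintain stem cells, had 15 of 81 and 15 of 168. The strongest Prdm16 site was 2548 bp wide (chr4:154357980-154360527) with an adult fold of 4.40, a fetal fold of 2.94 and adult H3K27ac of HPC at a fold of 3.05. The strongest Mecom site was 341 bp wide (chr3:30110301-30110641), with an adult fold of 3.26 and a fetal fold of 7.30. Of the 15 sites at Mecom 1 was at least 1 kb from HPC peaks, and of the 15 at Prdm16 7 were. Angpt1, a ligand of the receptor Tek that stem cells make themselves, had 14 of 157, each within 1 kb of an HPC peak. At Magi1, 11 of 14 HSC-only sites (of 46 in all) were at least 1 kb away. The body of Magi1 held 108 fetal and 119 adult peaks of the second K27 set, and 3 of its 14 HSC-only sites overlapped 1.

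Dach1, a transcriptional cofactor, had 12 HSC-only sites of 30, with no H3K27ac peak under any of its 30 sites. Its body held 59 H3K4me1 peaks in fetal and 27 in adult HSC, against 7 and 3 in fetal and adult HPC. Elsewhere in that body lay 2 fetal and 1 adult H3K27ac peaks of HPC. Arhgef12, a guanine nucleotide exchange factor of small GTPases, had 12 of 28 (42.9%; 26.5 to 60.9%), the highest share among the 1532 genes with at least 20 adult HSC sites, where the median was 2.43%. All 12 lay inside the gene body, over a stretch of 52.5 kb, and 11 overlapped the second K27 set of HPC, all 11 at the fetal age and 2 at the adult age. That body held 29 fetal peaks of the second set over 34.0 kb and 1 adult peak of 0.521 kb. The 28 Arhgef12 sites included 3 4-list sites, and 1 of the 28 overlapped adult H3K27ac. Plxdc2, a plexin-domain membrane protein, had 13 of 53, Exoc6b, a subunit of the exocyst, 12 of 59, Thsd4, an extracellular matrix protein, 11 of 51 and Plcb1, a phospholipase C, 9 of 37. Large gene bodies hold more peaks of every class, so the share was also ranked. Dach1 ranked 3 and Magi1 6 by share, whereas Mecom ranked 202 and Angpt1 203 of the 1532 genes.

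**Figure D2:**
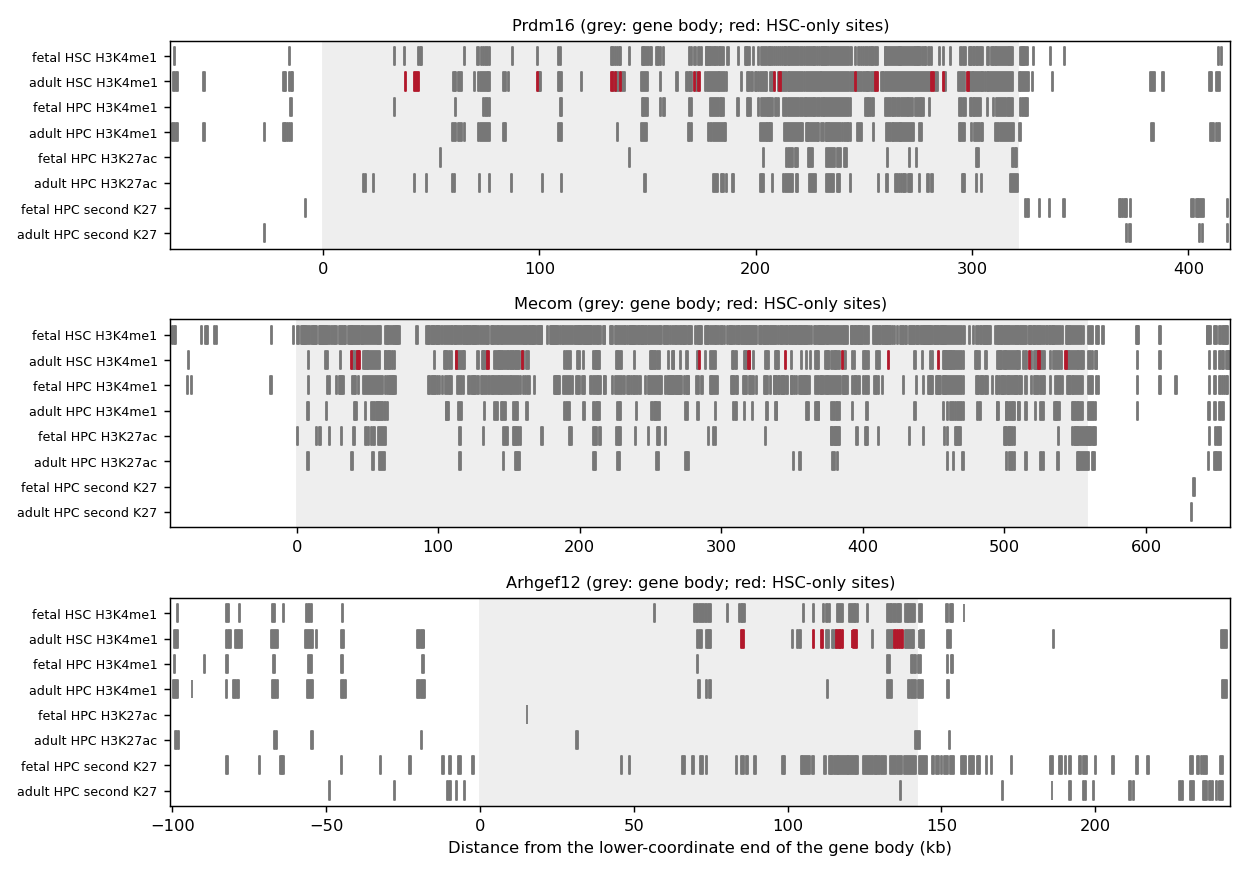
Peaks of the 8 lists at Prdm16, Mecom and Arhgef12, plotted by distance in kb from the end of the gene body with the lower coordinate (grey area: gene body; red: HSC-only sites on the adult HSC track; grey bars: other peaks, drawn at a minimum width so that narrow ones can be seen). The 15 HSC-only sites of Mecom are scattered among HPC peaks, and 11 of the 12 of Arhgef12 lie over fetal peaks of the second K27 set.

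HSC identity genes held HSC-only sites at more than the background share, and Mecom and Prdm16 had 15 each of the 72 sites. Of 1182 adult HSC sites at these 34 genes, 72 were HSC-only (6.09%; 4.87 to 7.60%), at 16 of the genes, against 3.63% over all coding genes. The share was 2.46 points above that of all coding genes (1.23 to 3.97). Without Mecom and Prdm16 it was 42 of 933 (4.50%; 3.35 to 6.03%), and the difference of 0.868 points had an interval that includes 0 (-0.291 to 2.40). The median share over the genes of the list was 0, the same as over all coding genes. When only HSC-only sites at least 1 kb from every HPC H3K4me1 peak were counted, the difference was 0.239 points with an interval from -0.393 to 1.18, so none was detectable there. With a −log10 q of at least 5 it was 0.861 points (-0.148 to 2.29). Mllt3, a chromatin reader that supports stem cell maintenance, had 9 of 135. Ctnnal1, which encodes alpha-catulin and marks stem cells in reporter mice, had 5 of 8, and Zfp521, a zinc finger factor of immature blood cells, had 5 of 61. Esam, an adhesion molecule of stem cells and endothelium, had 3 of 6. Slamf1, the CD150 antigen used to sort stem cells, had 3 of 15, and Tek, the angiopoietin receptor, had 2 of 12. A Tek site of 791 bp (chr4:94745981-94746771) had an adult fold of 2.76 beside a fetal fold of 8.56. Many core factors had no such site, and neither had 694 of the 1532 genes with at least 20 adult HSC sites. Runx1, a master regulator of blood formation, had 0 of 97, Etv6 0 of 50, Lmo2 0 of 37, Fli1 0 of 35 and Gata2 0 of 18, and in these genes 72, 40, 34, 27 and 8 sites were in all 4 lists. Kit, the stem cell factor receptor that progenitors also carry, had 1 of 66.

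The cell type labels were compared with marker genes. Of 380 adult HSC sites at 9 HSC markers, 43 were HSC-only (11.3%; 8.51 to 14.9%), at 7 of the markers, and Hlf and Procr had none. In the mirror class, the 6539 of 126502 adult HPC sites that overlapped a fetal HPC peak and no HSC peak of either age (HPC-only sites), 3 lay at these markers. Of 56 adult HSC sites at 9 progenitor markers, 1 was HSC-only (1.79%; 0.316 to 9.45%), at Klf1, the erythroid master factor. That interval includes the 3.63% of all coding genes. At the progenitor markers lay 11 HPC-only sites. Of these 11, 4 were at Cebpa, which drives the granulocyte and monocyte fate, 4 at Flt3, a receptor of early lymphoid progenitors, 2 at Il7r and 1 at Csf1r. HPC-only sites made up 5.17% of all adult HPC sites. The number of adult HPC sites at the markers is not given here, so the 3 and the 11 cannot be set against that share. Since the rule used H3K4me1 of both cell types, the comparison is a description of the labels and no test.

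Lineage lists differed in the number of HSC-only sites they held. For a list with none, the upper end of the Wilson interval is given, and then the share that 3 sites of the total would make, a rule of thumb for the limit that a count of 0 allows. The myeloid list had 0 of 178 sites (0 to 2.11%; 3 sites would be 1.69%). The type I interferon and antigen presentation list had 0 of 136 (0 to 2.75%; 2.21%), and housekeeping genes had 0 of 145 (0 to 2.58%; 2.07%). The megakaryocyte and platelet list had 8 of 270 (2.96%; 1.51 to 5.74%), near the background of 3.63%, and 3 of the 8 were at Vwf, which encodes the von Willebrand factor. That list was counted without genes that are not reported here, so its place near the background holds only for the 22 genes counted. Endothelial and hemogenic genes had 16 of 240 (6.67%; 4.15 to 10.6%), of which 4 were at Mmrn1, the platelet and endothelial multimerin, 3 at Esam, and 2 each at Tek and Kdr. Quiescence genes had 19 of 422 (4.50%; 2.90 to 6.93%), and 14 of the 19 were those at Angpt1. Lymphoid priming genes had 13 of 650 (2.00%; 1.17 to 3.39%), 7 of them at the nuclear receptor gene Rora. Niche receptors and adhesion genes had 11 of 596 (1.85%; 1.03 to 3.27%), TGF-beta, BMP and Notch pathway genes 15 of 580 (2.59%), and erythroid genes 6 of 165 (3.64%). Of the 15, 4 were at Jag1, a ligand of Notch. Cell cycle genes had 6 of 290 (2.07%), and the fetal stem cell programme 7 of 165 (4.24%; 2.07 to 8.50%), 3 of them at Igf2.

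The lists of homeobox and other developmental factors also exceeded the background. Hox clusters A and B had 13 of 102 sites (12.8%; 7.60 to 20.6%), of which 4 were at Hoxb3 and 2 each at Hoxa3 and Hoxb1. The site at Hoxa9, a leukemia-associated stem cell factor, was 189 bp wide, 953 bp from an HPC H3K4me1 peak and under strong H3K27ac, with folds of 17.6 in adult and 8.72 in fetal HPC. Developmental regulators, listed as silent in blood although no expression was measured here, had 35 of 535 (6.54%; 4.74 to 8.96%) at 23 genes. Among these, Sox1, a factor of neural precursors, and Pax1, a factor of the spine and thymus, had 4 each and Pax2 had 3. Of the 35 sites, 20 overlapped the second K27 set of HPC at either age, against 4.95% of HSC-only sites and 3.43% of all adult HSC sites. The share over all 535 sites at these genes is not given here. A trait of the genes therefore cannot be told apart from one of their HSC-only sites. H3K27ac at either age overlapped 0 of the 35, against 5.39% of HSC-only and 38.8% of all adult HSC sites, so a count of 0 is close to the HSC-only share. The 4 at Sox1 overlapped the second set at the fetal age and 1 of them also at the adult age, while none of the 4 at Pax1 did.

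Markers of cells that could contaminate a sort had few HSC-only sites, and their shares could not be told from the background of 3.63%. B cell markers had 3 of 75, T and NK cell markers 2 of 106, macrophage markers 3 of 98, stroma markers 5 of 189 and hepatocyte markers 1 of 37. These shares ran from 1.89% to 4.00%. Their intervals were wide: 1.37 to 11.1% for B cell, 0.519 to 6.62% for T and NK cell and 1.05 to 8.62% for macrophage markers. For stroma markers the interval was 1.14 to 6.04% and for hepatocyte markers 0.479 to 13.8%. Each includes the background, so the counts say little about such cells. The endothelial list shares genes with stem cells, and its share was given above.

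**Figure D3:**
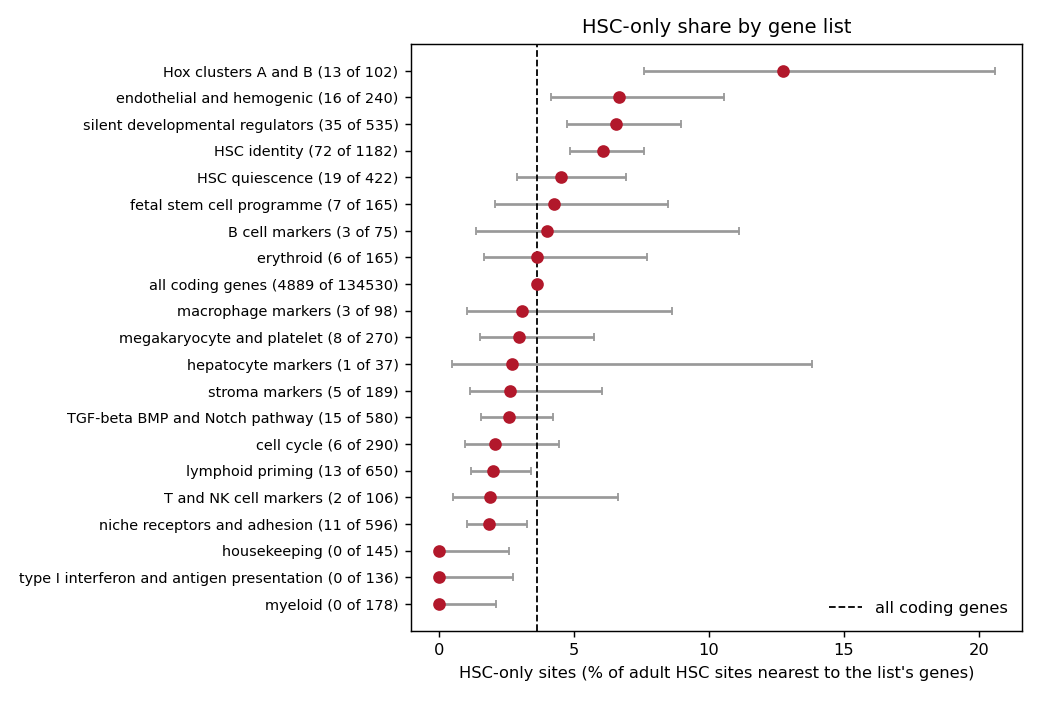
HSC-only sites as a percentage of the adult HSC sites nearest to the genes of each list, with 95% Wilson intervals; the numbers beside each name are HSC-only sites of all adult HSC sites there, and the dashed line is the share over all coding genes (3.63%). HSC identity, endothelial, Hox and developmental regulator genes lie right of the line, the megakaryocyte list lies left of it, and the myeloid, interferon and housekeeping lists are at 0. The lists leave out the genes that are not reported here.

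HSC-only sites rarely carried H3K27ac in progenitors. H3K27ac was measured in libraries the rule did not use. However, HSC-only sites have no HPC H3K4me1 peak by the rule, while 4-list sites have one at each age by definition. Both marks lie at enhancers, so the choice of the classes can itself set them apart in HPC H3K27ac. The size of that part was not tested. The 4-list sites were also wider, with a median of 1041 bp against 349 bp, and a wider site more easily shares 1 bp with a peak. No comparison at matched width was made, so the part of width was not tested either. Adult HPC H3K27ac overlapped 219 HSC-only sites (4.02%; 3.53 to 4.57%), against 35.7% of all adult HSC sites and 50.2% of 4-list sites. The difference from 4-list sites was -46.2 percentage points (-46.8 to -45.6). Fetal HPC H3K27ac overlapped 153 (2.81%; 2.40 to 3.28%), against 23.8% of all and 36.1% of 4-list sites, a difference of -33.3 points (-33.8 to -32.7). Compared within the 10 bands of −log10 p and weighted by the number of HSC-only sites in each, the difference was -21.9 points at the adult and -15.3 points at the fetal age. In each band the HSC-only share was the lower, with the upper end of the interval below 0. Either age had H3K27ac at 294 sites (5.39%), against 38.8% of all adult HSC sites, and both ages had it at 78 (1.43%), against 20.6%.

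Overlap was also low at sites of adult HSC alone, the 12297 adult HSC sites with no peak in the other 3 H3K4me1 lists. Their adult H3K27ac overlap was 5.92%, and that of HSC-only sites differed from it by -1.90 points (-2.56 to -1.22). Their fetal overlap was 2.58%, and the difference of 0.228 points had an interval from -0.274 to 0.770, so none was detectable. Fetal H3K27ac without adult H3K27ac was at 75 HSC-only sites (1.38%; 3.14% of all adult HSC sites) and at 0.455% of sites of adult HSC alone, a difference of 0.920 points (0.612 to 1.28). The mirror class of HPC-only sites had adult H3K27ac of its own cell type at 817 of 6539 (12.5%) and fetal at 240 (3.67%). Over all adult HPC sites the shares were higher, at 38.06% and 25.45%. HSC-only sites lay below HPC-only sites, with differences of -8.48 points (-9.44 to -7.52) at the adult and -0.865 points (-1.5 to -0.226) at the fetal age. HPC-only sites were also wider, with a median of 457 bp against 349 bp. The 2 classes differ in which cell type gave H3K4me1, while H3K27ac came from HPC for both.

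Acetylated HSC-only sites were near gene ends more often than the other HSC-only sites, though most were not there. Of the 294, 82 (27.9%; 23.1 to 33.3%) were within 1 kb of a gene end, against 256 of the 5159 others (4.96%; 4.40 to 5.59%). Over all adult HSC sites the shares were 30.1% with H3K27ac at either age and 9.44% without, so the share at acetylated sites was near that of the whole list. The 6 with the highest adult H3K27ac fold among those acetylated at both ages all lay there. They were at Ythdc1, a reader of methylated RNA (H3K27ac folds 40.3 in adult and 21.3 in fetal HPC), Chtop, a factor of RNA export (38.2 and 21.4), C1d, a cofactor of the RNA exosome (38.2 and 29.4), Ankrd13c (37.0 and 24.2), Pskh1, a kinase (34.8 and 21.2), and 1700037H04Rik (29.2 and 15.5). Their H3K4me1 folds in adult HSC were 2.12 to 3.17 and their widths 152 to 464 bp, and an HPC H3K4me1 peak lay 140 to 1456 bp away.

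The second K27 set overlapped HSC-only sites slightly more often than other sites. At the adult age it lay under 134 (2.46%; 2.08 to 2.90%), against 1.52% of all adult HSC sites and 1.37% of 4-list sites, a difference of 1.09 points (0.705 to 1.54). At the fetal age it lay under 235 (4.31%; 3.80 to 4.88%), against 3.13% of all and 2.89% of 4-list sites, a difference of 1.42 points (0.900 to 2.00). Within bands of −log10 p the weighted differences were 1.66 points in adult and 2.51 points in fetal HPC. With an overlap of at least 50% of the shorter peak the adult difference was 0.385 points. With peaks within 1 kb merged first, the differences were 0.198 and -0.228 points with intervals that include 0, and among the 20 HSC-only sites of the 20000 strongest none overlapped the set. HPC-only sites overlapped it at 23 (0.352%) in adult and 44 (0.673%) in fetal HPC, 2.11 and 3.64 points below HSC-only sites. Of all adult HPC sites, 1.39% overlapped the set in adult and 3.06% in fetal HPC. Either age had it at 270 HSC-only sites (4.95%), against 3.43% of all adult HSC sites. Both ages had it at 99 (1.82%), against 1.22%. Of the 270, 20 were at the developmental regulators (7.41%) against 15 of the 5183 others (0.289%), and 11 were those at Arhgef12. Nr2f2 and Sox1, both transcription factors of other tissues, had 4 each. The 6 with the highest adult HSC fold (3.81 to 4.04) were in Slit1, a guidance ligand, in Ugt8a, an enzyme of myelin lipid synthesis, in the orexin receptor gene Hcrtr2, 29180 bp from Mvb12b, 28471 bp from Fbxo8 and 49459 bp from Dicer1. Of these 6, the sites near Dicer1 and in Hcrtr2 overlapped the set at both ages. Neither K27 set had a peak at 4893 HSC-only sites (89.7%), against 58.1% of all adult HSC sites and 90.3% of sites of adult HSC alone.

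**Figure D4:**
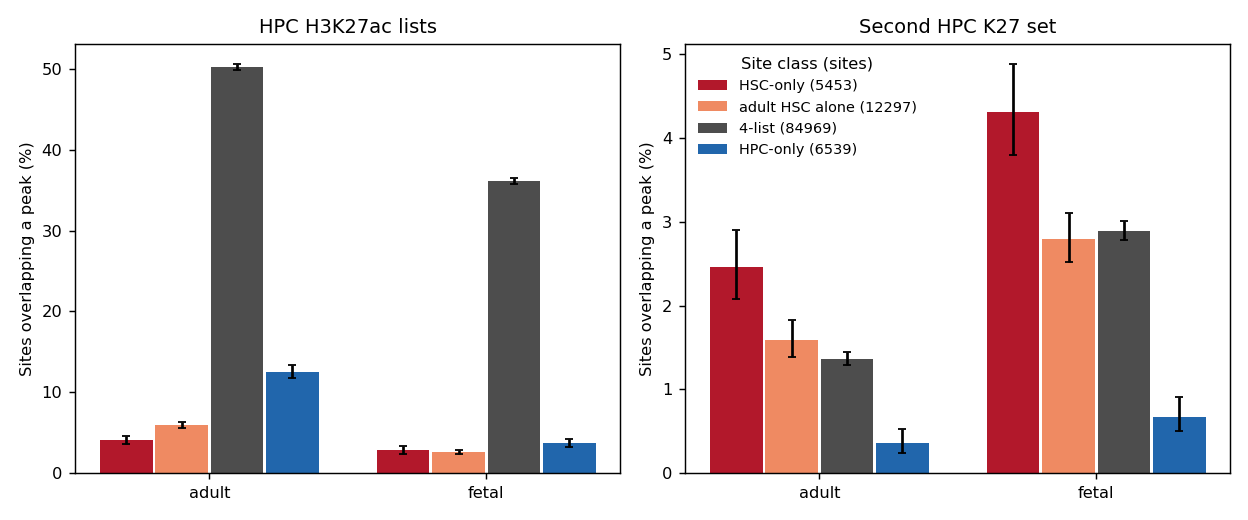
Percentage of sites of 4 classes that overlapped adult or fetal HPC peaks of H3K27ac (left) and of the second K27 set (right), with 95% Wilson intervals and numbers of sites in the legend. HSC-only sites (4.02% and 2.81%) stand far below 4-list sites (50.2% and 36.1%) for H3K27ac, and above the 3 other classes for the second set (2.46% and 4.31%).

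HSC-only sites lay near gene ends less often than other sites. Inside a coding gene body were 3527 (64.7%), against 64.4% of all adult HSC sites and 65.2% of 4-list sites (difference -0.479 points; -1.80 to 0.819) and 61.9% of sites of adult HSC alone (difference 2.75 points; 1.21 to 4.27). Within 1 kb of either end of a coding gene were 338 (6.20%; 5.59 to 6.87%), against 17.5% of all adult HSC sites, 20.4% of 4-list sites (difference -14.2 points; -14.9 to -13.5) and 10.3% of sites of adult HSC alone. Within bands of strength the difference from 4-list sites was -6.06 points. The 4-list sites were wider, and the part of width in this difference was not tested. Within 1 kb of a transcription start were 205 (3.76%), against 13.5% of all. No coding gene body lay within 100 kb of 564 of the sites, such as a run of 6 on chromosome 13 (chr13:110993490-111002110), 252902 bp from the nearest, Actbl2. By chromosome the HSC-only share ran from 2.84% on chromosome 11 to 4.77% on chromosome 1, which holds Plcl1.

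Of the HSC-only sites, 3884 (71.2%) had no other HSC-only site within 10 kb. Another lay within 10 kb of 1569 (28.8%), and 136 runs held 3 or more. Neighbours were not counted for any other set of sites. These shares therefore do not show whether the class is clustered or scattered. Only 9 runs held 5 or more. Among them were 7 sites in Arhgef12, 7 at Trpc6, a calcium-permeable channel, 6 near Actbl2, 6 in Plcl1 and 5 in Ctnnal1. The Ctnnal1 run spanned 12 kb (chr4:56853902-56865846), and 1 of its 5 sites overlapped adult H3K27ac.

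Many HSC-only sites were close to an HPC peak. The median distance to the nearest HPC H3K4me1 peak was 832 bp, with 669 sites under 100 bp, 2215 from 100 bp to 1 kb, 1575 from 1 to 10 kb and 994 at 10 kb or more. Sites farther away were wider, with medians of 311, 311, 396 and 439 bp in these 4 bands. Adult H3K27ac overlapped 4.34%, 5.10%, 3.87% and 1.61% of them, and the interval of the farthest band (0.993 to 2.60%) lay below those of the others. Fetal H3K27ac overlapped 2.69%, 3.03%, 3.05% and 2.01%, with intervals that overlap throughout. The second K27 set at either age overlapped 5.68%, 4.47%, 4.83% and 5.73%, with no order beyond the counting intervals. The share inside gene bodies was 72.5%, 70.8%, 63.9% and 47.0%. The HSC-only sites just inside the rule, within 100 bp of an HPC peak when the distance was counted inclusively, numbered 675, with a median width of 311 bp, a median adult fold of 2.40, adult H3K27ac at 4.30% and fetal H3K27ac at 2.67%. Just outside it, 977 adult HSC sites that overlapped fetal HSC and shared at most 100 bp with HPC peaks had a median width of 264 bp, a fold of 2.38, adult H3K27ac at 5.73% and fetal H3K27ac at 5.43%.

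**Figure D5:**
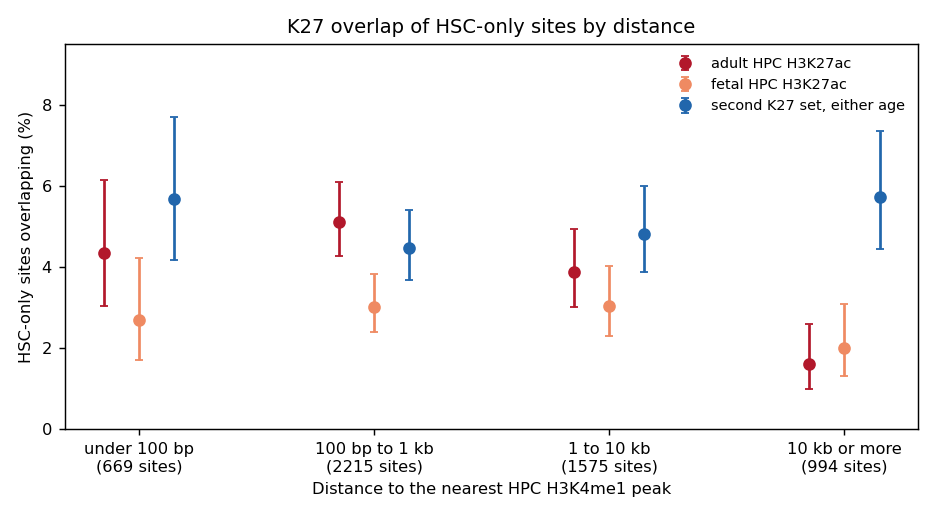
Percentage of HSC-only sites that overlapped adult H3K27ac, fetal H3K27ac or the second K27 set of HPC, by distance to the nearest HPC H3K4me1 peak, with 95% Wilson intervals and the number of sites under each band. Adult H3K27ac was at 4.34% in the nearest band and 1.61% in the farthest, while the intervals of fetal H3K27ac and of the second K27 set overlap throughout.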

How the data were processed

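ChIPmentation libraries were grouped by mark, cell type and age from the labels. Per the submitters' processing notes, Novoalign aligned the reads to mm10 (GRCm38) and MACS2 called peaks. Not given in the sources used here are the versions, the peak filter and the role of the inputs. The authors deposited 1 filtered peak list per group, with libraries pooled. In each list the authors' fold is the ratio of signal to background at the peak, and the deposited −log10 p and −log10 q values stand beside it. The deposited score column was not used. Values of different lists may not share a scale. Where adult and fetal folds of a site are set side by side or correlated, this is a description only.

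Overlap meant at least 1 bp. Sites were assigned to the nearest of 21887 coding gene bodies of the RefSeq table for GRCm38.p6 within 100 kb. That table has no strand, so gene ends stood for promoters, and starts from the promoter table, which covered 79.9% of coding genes, were added later. Exons and introns were not analysed here. Of 465 genes in 20 lists, 5 were not matched. A few genes are not reported here, and the 4 of them that stood in these lists were left out of the list and marker counts. The members and the gene lists were chosen with earlier results of these data known. Genes were named by number of HSC-only sites (those of the 12 highest that are reported, and up to 4 per list) and sites by −log10 p, fold or K27 overlap; list members without HSC-only sites, genes ordered by share and the printed promoters were chosen after their values were seen. No test across samples was possible. A site with no peak in a list may still carry the mark, and a mark in few cells and a weak mark in many cannot be told apart. The counting was tested on simulated data, in which 2000 planted sites were recovered. Scripts used Python 3.11.15, pandas 2.3.3 and numpy 2.4.6.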

Additional observations from a re-analysis of the deposited data

How the results depend on the processing

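No paired analysis was possible because the libraries of each group, which share replicate numbers in the labels, were pooled into 1 peak list, and leaving out a replicate was not possible for the same reason. The number of HSC-only sites was 5453, and it was 2569 at 1 kb or more from HPC H3K4me1 peaks, 3049 with lists of equal length, 2714 with a −log10 q of at least 5, 20 among the strongest 20000 sites, 2946 with peaks within 1 kb merged and 1606 among sites of 500 bp or wider; by construction most of these keep fewer sites. The H3K27ac differences from 4-list sites kept their sign in every alternative run. In adult HPC the difference of -46.2 points became -39.1 with 50% overlap, -47.2 at 1 kb or more from HPC peaks, -51.1 with equal lists, -50.6 with the q limit, -57.4 among the strongest 20000, -55.6 with merging, -54.0 at 500 bp or wider and -21.9 within strength bands. In fetal HPC the difference of -33.3 points became -27.6 with 50% overlap, -37.9 with equal lists, -36.7 with the q limit, -55.3 among the strongest 20000, -29.0 from the fetal list, -41.7 with merging, -39.5 at 500 bp or wider and -15.3 within bands. The gene end difference of -14.2 points became -15.2 at 1 kb or more from HPC peaks, -16.0 with equal lists, -15.3 with the q limit, -21.0 among the strongest 20000, -11.9 from the fetal list, -19.5 with merging, -15.3 at 500 bp or wider, -6.06 within bands and -12.8 with transcription starts, a setting added after seeing the data. The second K27 set gave less stable differences. In adult HPC the difference of 1.09 points became 0.385 with 50% overlap, 0.198 with merging, 1.66 within bands and -1.55 among the strongest 20000. In fetal HPC the difference of 1.42 points became 2.50 from the fetal list, 2.51 within bands, -2.82 among the strongest 20000 and -0.228 with merging. The share at HSC identity genes, 2.46 points above all coding genes, became 4.35 with 50% overlap, 0.239 at 1 kb or more from HPC peaks, 0.861 with the q limit, 4.03 with merging, -0.0938 among the strongest 20000, where no HSC-only site was at these genes, and, in settings also added after seeing the data, 0.868 without Mecom and Prdm16 and 5.10 with the genes that are not reported here. The cause of these shifts was not tested. The myeloid list had 0 HSC-only sites in each of 11 alternatives. Counts at single lists and genes moved by over 1.5 times in 146 of 286 comparisons with an alternative. Read depth is unknown, and a site missing from a list may have been too weak to be called there.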
